A study of Homo sapiens with 35 samples.

Results

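The replication-dependent histone transcripts were followed for 10 days in a myeloma cell line recovering from a pulse of a proteasome inhibitor. The members were taken by name from the deposited count table: protein-coding entries whose symbol began with HIST1H, HIST2H, HIST3H or HIST4H and whose estimated counts summed to at least 20 over the 35 libraries. Of 71 such entries 52 passed, out of 17999 protein-coding entries tested. They comprised 4 of 6 entries for H1, 12 of 17 for H2A, 16 of 18 for H2B, 10 of 15 for H3 and 10 of 15 for H4. By cluster, 39 of 55 entries came from HIST1, 10 of 12 from HIST2, 2 of 3 from HIST3 and the 1 entry of HIST4. Of the 19 entries left out, 5 had no count and 14 had 1 to 19 counts, the highest being HIST1H2AJ with 18, while the lowest member, HIST1H3F, had 21. HIST2H3A and HIST2H3C carried identical values in every library, so these 2 members are 1 measurement.

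RPMI-8226, an established multiple myeloma line, was pulsed for 1 h with 750 nM carfilzomib, an irreversible proteasome inhibitor, and left to recover without drug. Bulk RNA was sequenced on days 0, 1, 2, 4, 6, 8 and 10 from 5 subcultures per day, all split from 1 expanded culture. GEO's labels list carfilzomib for day 0 as well, whereas the methods place that collection before the pulse, and day 0 is treated here as untreated. The series therefore rests on 1 line and 1 culture.

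Replication-dependent histone genes supply the histones that package newly copied DNA, so their mRNAs rise as cells enter S phase and are degraded when replication ends or stalls. Most lack introns, and their mRNAs normally end in a short stem-loop bound by SLBP instead of a poly(A) tail, the hairpin serving processing, translation and decay. H2A, H2B, H3 and H4 form the core particle and H1 binds the linker DNA, and the genes sit in clusters in which an H2A and an H2B gene often share one promoter region, transcribed in opposite directions.

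The stem-loop is shown because it is the feature that sets these mRNAs apart from other mRNAs. All 52 members matched a RefSeq gene by symbol, and in 50 of them a stem-loop was found in the 150 bases after the stop codon, beginning 22 to 67 bases past it. HIST1H2BI and HIST1H3E had none in that window. All 10 H4 members shared 1 pair of stem arms, and 38 of the 40 other members with a stem-loop shared another pair. The sequences below are given 5′ to 3′ on the transcribed strand, GRCh38.p14, with the arms of the stem in capitals and the loop in lower case. Each lies past the coding sequence, in the untranslated 3′ part of the mRNA.
HIST1H1C (chr6:26055744-26055759, minus strand): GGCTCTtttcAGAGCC
HIST1H2AC (chr6:26124669-26124684, plus strand): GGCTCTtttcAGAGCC
HIST1H2BK (chr6:27146366-27146381, minus strand): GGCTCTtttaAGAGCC
HIST1H2AG (chr6:27133515-27133530, plus strand): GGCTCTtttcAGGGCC
HIST1H4E (chr6:26205001-26205016, plus strand): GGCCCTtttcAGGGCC
HIST1H4I (chr6:27139654-27139669, plus strand): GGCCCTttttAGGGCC
The form printed for HIST1H1C was present in 30 members and that printed for HIST1H2BK in 7. Of the H4 members, 7 carried the loop of HIST1H4E and 3 that of HIST1H4I. HIST1H2AG had the first arm of the common form with the last arm of the H4 form, and HIST1H2AK (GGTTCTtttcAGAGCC, chr6:27837885-27837900, minus strand) was the other exception. GENCODE also lists, for 11 members, a transcript that runs over 100 bases past the stem-loop: HIST1H2AC, HIST1H2BC, HIST1H2BD, HIST1H2BE, HIST1H2BJ, HIST1H2BN, HIST1H3H, HIST2H2BE, HIST2H2BF, HIST3H2A and HIST3H2BB.

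The libraries held 6519392 to 10962890 estimated counts, of which 1340 to 8113 fell on the members. These are 0.0230% to 0.106% of the protein-coding counts, so 20 of the 52 members averaged under 1 CPM (the usual scaling of counts to library size, here the protein-coding total of each library) and carry wide errors. Whether the RNA was selected by poly(A) tail or depleted of ribosomal RNA is not given in the sources used here, and histone mRNAs without a tail are captured differently by the 2 methods. Other RNAs that normally lack a tail differed in course. RN7SL1, the RNA of the signal recognition particle and among the most counted of them, averaged 158 CPM on day 0, 209 on day 1 and 156 on day 2, and RN7SL2 averaged 205, 265 and 192, with ranges that overlapped day 0. SNORD3A, a small nucleolar RNA, was at 2.38 to 2.95 CPM on day 0, 12.5 to 33.2 on day 1 and 16.8 to 29.1 on day 2. RN7SK, a small nuclear RNA, was at 0 to 7.51 CPM on day 0 and 15.5 to 20.7 on day 2. On day 1 replicate 3 stood apart, with RN7SK at 121.9 CPM and 0 to 10.5 in the other 4 libraries. The part of tail status in the histone values was not tested.

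Summed over all 52 members, the histone transcripts fell to 24.2% of the day 0 level on day 1 and regained 96.7% by day 6, then declined again. Starting from 983.6 ± 37.1 CPM (SD, n = 5) before the pulse, the sum averaged 238.0 CPM after 1 day, 399 after 2, 602 after 4, 951 after 6, 871 after 8 and 683 at the end. On day 1 the 5 libraries lay between 229 and 255 CPM and on day 0 between 941 and 1028. In bulk samples fewer cycling cells and less histone mRNA per cell cannot be told apart. All p-values measure only the spread between subcultures of 1 culture.

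**Figure D1:**
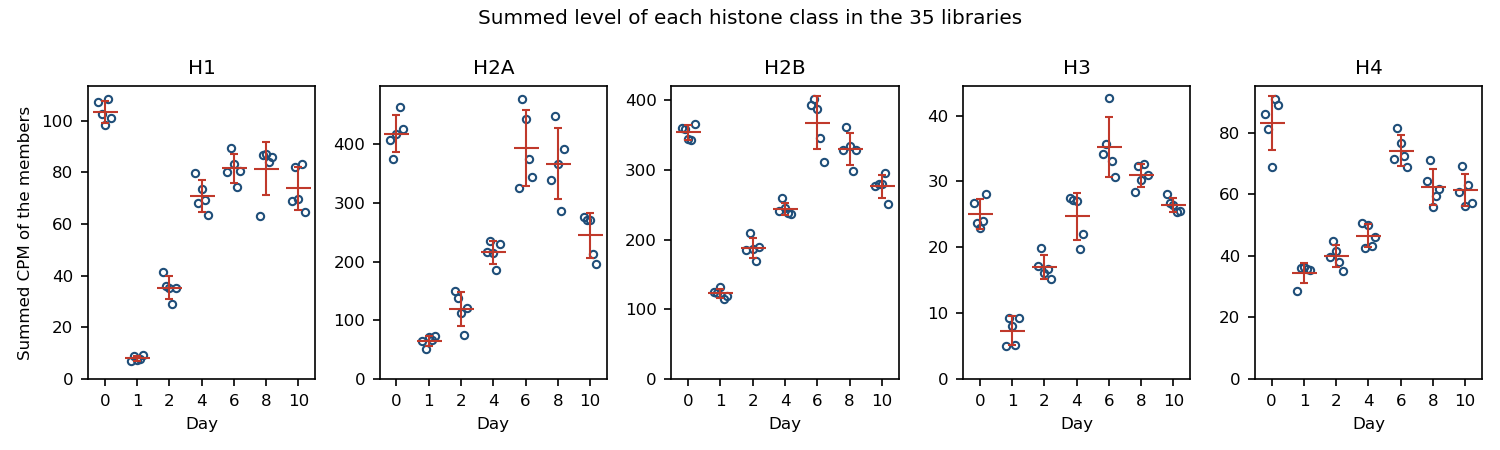
Summed level of the members of each histone class by day, in CPM, with 1 circle per library, 5 per day, and bars for the mean ± SD. H1 dropped furthest on day 1, to 7.79% of day 0, and H3 lay above its day 0 libraries on days 6 and 8.

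The 5 classes fell by different amounts and came back to different levels. H1 fell furthest. Its sum was 107, 103, 98.3, 108 and 101 CPM in the 5 day 0 libraries and 7.06, 8.97, 7.28, 7.72 and 9.30 on day 1, which is 7.79% of day 0. It regained 34.2% on day 2 and 78.8% on day 6, and all libraries of days 1 to 10 lay below all of day 0. HIST1H1C alone made up 98.7% of the H1 counts, so the class is nearly 1 gene. H2A, the most abundant class, stood at 407, 375, 418, 463 and 425 CPM on day 0 and 64.98, 51.5, 71.3, 66.4 and 72.9 on day 1, or 15.7%. It was still at 51.8% on day 4, overlapped day 0 on days 6 and 8, and lay wholly below it again on day 10 at 58.7%. H2B kept more of its level: 360.4, 358, 343, 342 and 366 CPM on day 0 against 125, 123, 132, 115 and 119 on day 1, or 34.7%, with overlap on days 6 and 8 and 78.1% on day 10. In these sums of coding entries H4 kept most on day 1, at 41.4%, but recovered slowly, to 55.9% on day 4. The H4 libraries read 85.9, 81.3, 69, 90.99 and 88.9 CPM on day 0 and 28.7, 36.04, 36.2, 35.7 and 35.5 on day 1. Nonsense-mediated decay entries are left out of the sums. That of HIST1H4H went from 40.6 to 13.2 CPM by day 1 and that of HIST2H4A from 20.0 to 3.49. The order of H4 and H2B on day 1 is therefore less certain. H3, the smallest class, read 26.7, 23.6, 22.9, 24.1 and 28.1 CPM on day 0, 4.998, 9.29, 8.13, 5.15 and 9.30 on day 1 and 34.1, 35.7, 42.6, 33.04 and 30.7 on day 6. The H3 sum therefore passed from 29.4% of day 0 on day 1 to 141% on day 6, and all libraries of days 6 and 8 lay above all of day 0.

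With these unequal falls the shares of the classes in the summed CPM of the coding entries shifted. Entries of other biotypes are not in these shares, and how fully tail-less mRNA was captured is not known. H2A gave 42.4% of the summed CPM on day 0 and 27.4% on day 1, H2B rose from 36.0% to 51.6%, H1 dropped from 10.5% to 3.40% and H4 went from 8.45% to 14.5%. The lowest H2B share on day 1 was 48.4% and the highest on day 0 was 38.1%, and these 2 ranges did not overlap. No test was made on class sums or shares.

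Single members were tested with edgeR's quasi-likelihood test over all 17999 protein-coding entries, and a call means an adjusted p of at most 0.05. On day 1, 31 of 52 members (59.6%) were lower than on day 0, against 27.3% of all entries tested. No member was called higher, against 25.4% of all entries; at an unadjusted p under 0.05, 1 member was higher, and DESeq2 called 0 higher and 30 lower. The median member changed by -1.39 on the log2 scale and the median entry by -0.06. The lower members were 6 of 12 for H2A, 13 of 16 for H2B, 6 of 10 for H3 and 5 of 10 for H4. For H1 it was 1 of 4, HIST1H1C alone, and that 25% is near the share of all entries. Among the 32 members with a mean of at least 1 CPM, 27 were lower (84.4%, against 34.7% of the 12189 entries at that level), with a median of -1.70 against 0.01.

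The fall then receded day by day. On day 2, 23 members were lower (44.2%, against 24.4% of all entries) and 3 were higher (5.77%, against 23.2%). On day 4, 16 were lower (30.8%, against 20.1%) and 5 higher (9.62%, against 19%). By day 6 the balance had turned, with 7 lower (13.5%, against 17%) and 10 higher (19.2%, against 17.5%), both shares near those of all entries. On day 8 there were 8 in each direction (15.4%, against 18.6% lower and 18.2% higher). On day 10, 14 were lower (26.9%, against 15.8%) and 5 higher (9.62%, against 16.1%). The member median ran from -1.39 on day 1 through -0.64, -0.10, 0.16 and -0.01 to -0.40 on day 10, whereas the median over all entries stayed between -0.06 and 0.

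Steps between neighbouring days showed the same course. From day 1 to day 2, 26 members rose (50%, against 20.2% of all entries) and 1 fell (1.92%, against 19.4%). From day 2 to day 4, 19 rose (36.5%, against 13.9%) and 0 fell, against 16.7%; 1 fell at an unadjusted p under 0.05 and DESeq2 called 0. From day 4 to day 6, 16 rose (30.8%, against 6.09%) and 0 fell, against 5.98%, with 0 at an unadjusted p under 0.05 and 0 by DESeq2. From day 6 to day 8 no member was called in either direction by edgeR, against 1.03% of all entries higher and 1.53% lower, though 5 were lower at an unadjusted p under 0.05 and DESeq2 called 2 lower. From day 8 to day 10, 5 fell (9.62%, against 4.97%) and 0 rose, against 5.08%, with 0 higher at an unadjusted p under 0.05 and 0 by DESeq2. These steps share libraries with each other and with the comparisons against day 0, so they are no independent counts.

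**Figure D2:**
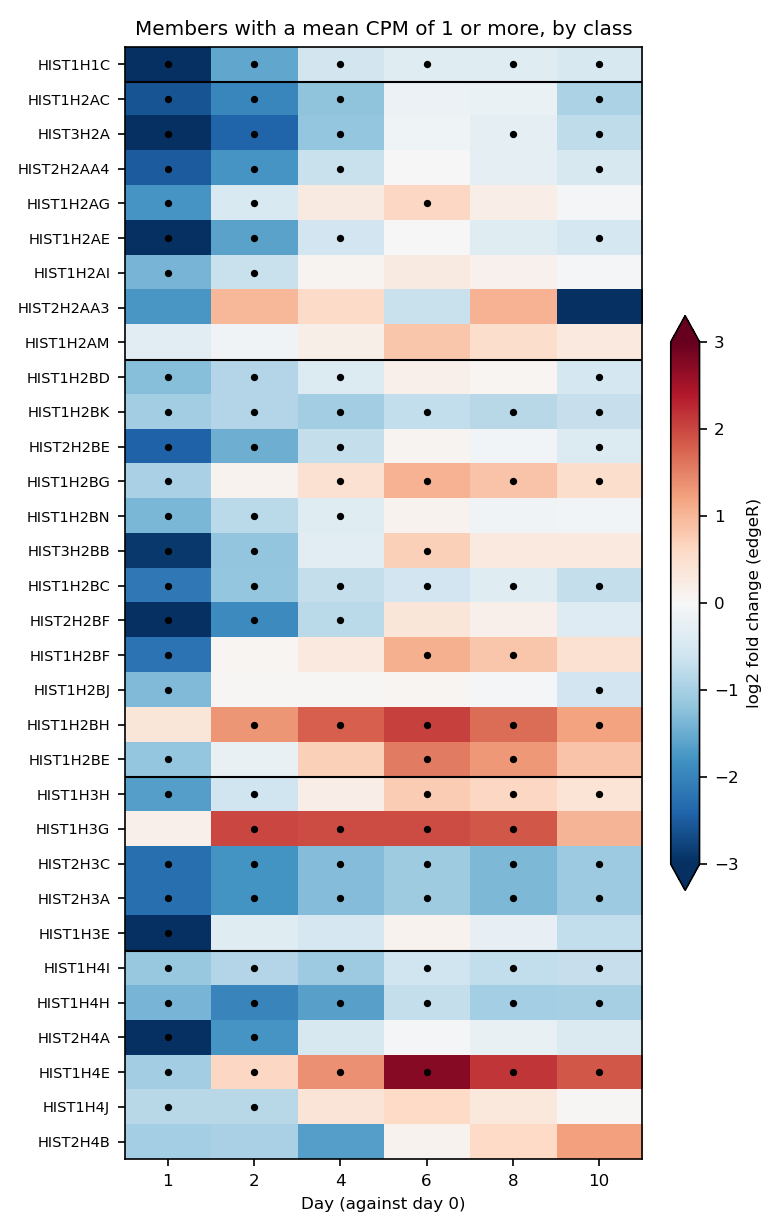
Log2 fold change against day 0, as colour, of the 32 members with a mean of at least 1 CPM, in rows by class (H1, H2A, H2B, H3, H4) and with days in columns. A dot marks an adjusted p of at most 0.05 in edgeR's quasi-likelihood test, and on day 1 all 27 dots lie on falls, in blue.

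The members followed several courses. Lower on all 6 days were 7 members, HIST1H1C, HIST1H2BC, HIST1H2BK, HIST1H4H, HIST1H4I and the identical pair HIST2H3A and HIST2H3C. Another 17 were lower on some days and never higher. HIST1H2AG, HIST1H2BE, HIST1H2BF, HIST1H2BG, HIST1H3H, HIST1H4E and HIST3H2BB were lower first and higher later, and HIST1H2BH, HIST1H3G and HIST1H4D were only ever higher. The remaining 18, mostly with few counts, had no call. Some of these calls rest on single libraries: HIST1H2BC on day 8 lost its call when any 1 of day 8 replicate 1, day 8 replicate 4 and day 0 replicate 2 was left out (log2 fold change -0.32 to -0.29), and HIST2H3A on day 10 without day 10 replicate 5 (-0.90). The same held for HIST1H2BE on day 1, without any 1 of 5 libraries (-1.18 to -0.73), for HIST1H4D on day 4 without day 4 replicate 1 (2.25), and on day 10 without day 0 replicate 3 or day 10 replicate 4 (2.26 and 2.13). HIST1H4E, called higher on day 2 at 0.62, lost that call without any 1 of 9 libraries (0.56 to 0.65) and in DESeq2. HIST1H2AE, HIST1H2AG, HIST1H2BC, HIST1H2BE, HIST1H2BF, HIST1H2BJ, HIST1H4D, HIST2H2AA3, HIST2H3C and HIST2H4B fell outside the naming rule and are named after their values were seen.

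Among the linker histones, HIST1H1C, which encodes the widely expressed H1.2, carried the class. Its 5 libraries read 107, 101, 98.1, 108 and 100.5 CPM on day 0 and 6.47, 8.66, 6.77, 7.38 and 8.96 on day 1. The day 1 values lay wholly below day 0, a 13.4-fold fall (log2 fold change -3.75, SE 0.11, adjusted p = 1.97e-28). On day 2 it had come back to 40.2, 35.4, 34.7, 28.4 and 34.6 CPM (log2 fold change -1.57, SE 0.09, adjusted p = 3.33e-19). It levelled off short of its starting point, at 78.3, 88.4, 82.1, 73.6 and 79.3 CPM on day 6 (log2 fold change -0.36, SE 0.08, adjusted p = 4.37e-04) and 68.1, 81.2, 69.1, 82.5 and 64.3 CPM on day 10. HIST1H1E, encoding H1.4, and HIST1H1T, the testis linker histone, stayed under 1 CPM in all 35 libraries and had no call on any day.

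In H2A the 3 most abundant members, HIST1H2AC, HIST3H2A and HIST2H2AA4, fell on day 1 and overlapped day 0 again on day 6. HIST1H2AC gave 52.1% of the H2A counts. It read 195, 201, 239, 274 and 243 CPM on day 0 and 39.99, 26.1, 40.5, 38.8 and 47 on day 1 (log2 fold change -2.58, SE 0.22, adjusted p = 3.47e-13), and its 5 day 2 libraries were still at 87.7, 68.3, 55.4, 22.8 and 58.4. When all transcript entries of the symbol were summed, a setting added after the data were seen with CPM over all entries, HIST1H2AC went from 243 to 37.8 CPM (-2.68) and was lower on day 8 as well (-0.22, adjusted p = 0.0141). Day 6 overlapped day 0, and on day 10 the coding entry was lower again at 162, 127, 135, 75.6 and 92.6 CPM (log2 fold change -0.96, SE 0.20, adjusted p = 1.82e-04). HIST3H2A, an H2A gene of the small HIST3 cluster, dropped further. Its libraries went from 100.3, 78.1, 89.02, 96.4 and 85.5 CPM to 5.29, 6.45, 7.45, 7.55 and 5.41 on day 1, with no overlap (log2 fold change -3.81, SE 0.14, adjusted p = 4.22e-25). They regained 89.8, 85.97, 82.8, 78.9 and 75.4 CPM on day 6, which overlapped day 0, and fell to 49.95, 62.6, 53.1, 58.7 and 41.4 by day 10 (log2 fold change -0.75, SE 0.11, adjusted p = 1.75e-07).

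HIST2H2AA4 went from 72.8, 64.6, 59.7, 62.5 and 50.1 CPM on day 0 to 11.3, 13.4, 7.62, 12.2 and 10.1 on day 1 and 63.7, 58.02, 75.2, 59.03 and 55.9 on day 6. It lies in a duplicated stretch with HIST2H2AA3, and counts of such copies cannot be shared out firmly. HIST2H2AA3 was at 0 in 4 of 5 libraries on day 0 and at 15.8 CPM in the other. Of the 52 members 8 had under 10% of their 31-base words unique to them, so their separate values are uncertain. Added after the data were seen, the sum of the 2 copies was 65.1 CPM on day 0 and 11.8 on day 1 (log2 fold change -2.46), beside -2.502 for HIST2H2AA4 alone. The summed copies HIST2H4A and HIST2H4B went from 12.1 to 2.05 CPM (-2.57) and HIST2H3A with HIST2H3C from 5.80 to 1.17 CPM (-2.29).

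H2B was spread over more genes than the other classes, with HIST1H2BD at 22.2% and HIST1H2BK at 21.4% of its counts. HIST1H2BD read 73.6, 75.2, 71.7, 77.6 and 78.2 CPM on day 0 and 31.3, 32.7, 33.4, 25.4 and 31.95 on day 1 (log2 fold change -1.28, SE 0.08, adjusted p = 9.68e-17), and overlapped day 0 on day 6 with 86.5, 92.4, 91.3, 79.3 and 68.5. HIST1H2BK, which fell by a similar factor, did not come back. It stood at 96.3, 97.9, 79.7, 91.6 and 104 CPM on day 0, 43.4, 46.3, 50.1, 48.4 and 41.3 on day 1 and 61.2, 63.4, 55.6, 60.1 and 51.2 on day 10. All later libraries lay below all of day 0, with log2 fold changes between -1.04 on day 4 and -0.69 on day 10 (adjusted p = 1.52e-08 on day 10). HIST2H2BE fell more steeply, from 84.2, 79.5, 77.6, 73.2 and 74.1 CPM to 18.1, 14.5, 12.7, 13.7 and 13.4 (log2 fold change -2.42, SE 0.10, adjusted p = 6.26e-24), and overlapped day 0 on day 6 at 91.7, 88.1, 89.98, 75.8 and 65.8 CPM. HIST2H2BF had the steepest fall of the class, from 8.44, 10.5, 13.4, 6.61 and 12.7 CPM to 0.588, 1.10, 1.02, 0.515 and 0.338 (log2 fold change -3.82, SE 0.29, adjusted p = 3.81e-15). Only 24.8% of the 31-base words of HIST2H2BF and 29% of those of HIST1H2BK were unique to them. Their separate values are therefore less certain too.

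Other H2B genes overshot. HIST1H2BG read 14.2, 13.01, 12.7, 14.8 and 15.2 CPM on day 0, 8.53, 7.55, 5.59, 6.69 and 7.10 on day 1 (log2 fold change -0.97, SE 0.14, adjusted p = 1.27e-07) and 35.05, 30.4, 30, 24.96 and 24.3 on day 6 (log2 fold change 1.05, SE 0.12, adjusted p = 1.75e-09). HIST3H2BB read 20.3, 17.8, 19.8, 15.8 and 19.3 CPM on day 0, 1.91, 2.20, 3.73, 2.23 and 2.54 on day 1 (log2 fold change -2.89, SE 0.19, adjusted p = 7.15e-17) and 34.7, 34.6, 34.1, 27.8 and 22.8 on day 6 (log2 fold change 0.72, SE 0.14, adjusted p = 3.29e-05). In both, the day 1 libraries lay below and the day 6 libraries above all of day 0. HIST1H2BH had no call on day 1 (0.882, 0.787, 3.05, 1.37 and 1.69 CPM against 2.39, 1.59, 0.715, 0.200 and 0.770, log2 fold change 0.35, SE 0.38, adjusted p = 0.453) and was higher on day 6 at 3.20, 5.62, 5.24, 4.99 and 6.03 CPM (log2 fold change 2.04, SE 0.33, adjusted p = 2.59e-06).

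The H3 class rested on HIST1H3H, with 72.3% of its counts. It fell from 16.2, 15.7, 14.3, 14.6 and 17.5 CPM to 3.53, 5.19, 5.42, 3.94 and 6.76 on day 1 (log2 fold change -1.66, SE 0.15, adjusted p = 1.33e-12), then rose to 26.6, 27.6, 32.5, 25.4 and 21.8 on day 6 (log2 fold change 0.77, SE 0.12, adjusted p = 2.19e-06), and was still higher on day 10 (log2 fold change 0.41, SE 0.13, adjusted p = 0.0101). The day 1, day 6 and day 10 libraries did not overlap those of day 0. HIST1H3G, at far fewer counts, had no call on day 1 (0.15) and rose on day 2, from 0.422, 1.27, 1.07, 0.200 and 0.193 to 2.58, 3.22, 2.93, 2.31 and 2.20 CPM (log2 fold change 2.01, SE 0.40, adjusted p = 4.62e-05). HIST1H3E, at 2.67, 0.794, 0.536, 0.802 and 2.31 CPM on day 0, was at 0.147, 0.157, 0, 0 and 0 on day 1, where 3 libraries held no count (log2 fold change -4.12, SE 0.67, adjusted p = 1.30e-06). HIST2H3A stayed below its day 0 mean throughout, with 3.09, 2.22, 2.502, 3.21 and 3.47 CPM on day 0, 0.294, 0.944, 0.339, 0.343 and 1.01 on day 1 (log2 fold change -2.27, SE 0.38, adjusted p = 2.56e-06) and 1.02, 0.759, 1.80, 1.47 and 1.87 on day 6 (log2 fold change -1.06, SE 0.34, adjusted p = 0.0122).

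The H4 members named here encode the same protein, yet their transcripts went apart. HIST1H4I, with 51.0% of the H4 counts, read 48.4, 43.96, 37.4, 52.9 and 53.1 CPM on day 0, 19.1, 21.9, 22.2, 21.8 and 22.5 on day 1 (log2 fold change -1.13, SE 0.10, adjusted p = 1.15e-12) and 26.03, 34.2, 26.8, 31.9 and 27.3 on day 10 (log2 fold change -0.68, SE 0.10, adjusted p = 4.16e-07). It stayed wholly below day 0 on every later day. HIST1H4H reached its lowest level on day 2, with 16.7, 16.8, 17.2, 17.8 and 18.3 CPM on day 0, 6.03, 7.08, 6.27, 6.69 and 6.76 on day 1 and 5.60, 4.72, 3.61, 3.86 and 4.25 on day 2 (log2 fold change -1.97, SE 0.14, adjusted p = 3.92e-16). A nonsense-mediated decay entry of HIST1H4H held more counts than this coding entry, and over all entries the gene went from 49.9 to 17.9 CPM on day 1. HIST1H4E took the opposite course after day 1. Its libraries read 1.97, 2.06, 1.97, 1.60 and 1.73 CPM on day 0, 1.32, 0.944, 0.508, 1.03 and 0.676 on day 1 (log2 fold change -1.04, SE 0.32, adjusted p = 0.00587) and 13.6, 15.6, 13.4, 12.2 and 8.47 on day 6 (log2 fold change 2.74, SE 0.23, adjusted p = 5.81e-13), a 6.68-fold rise over day 0. On day 10 it was still at 8.44, 5.82, 6.46, 7.64 and 6.10 CPM (log2 fold change 1.86, SE 0.24, adjusted p = 3.51e-08). HIST2H4A fell on day 1, from 9.42, 12.9, 8.76, 10.8 and 10.8 CPM to 0, 2.05, 0.847, 2.57 and 0.845 (log2 fold change -3.07, SE 0.45, adjusted p = 1.94e-07), and overlapped day 0 from day 4. HIST4H4, the lone member of its cluster, had 0.563, 1.43, 0.536, 1.20 and 0.385 CPM on day 0 in its coding entry and no call on any day. Over all its entries, summed after the data were seen, HIST4H4 was higher on day 6 (0.59, adjusted p = 0.0377 in edgeR).

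**Figure D3:**
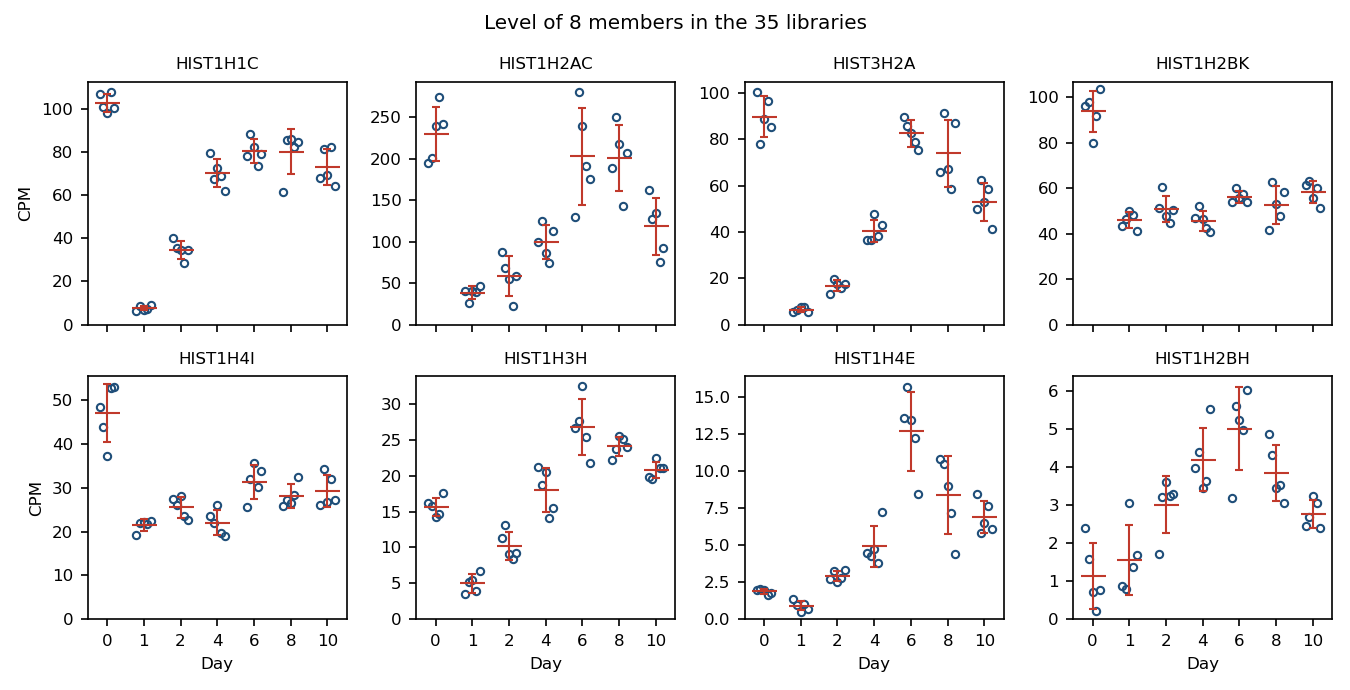
Level of 8 members by day, in CPM, with 1 circle per library, 5 per day, and bars for the mean ± SD. HIST1H1C and HIST1H4I stay below their day 0 libraries on every later day, while HIST1H4E ends above them.

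Day 6 was also set against day 1, a contrast added after the data were seen. The members below were picked as called lower on day 1 and higher on day 6, so their calls here follow from that choice. Nor does the contrast test a rise past day 0, since HIST1H1C, lower than day 0 on all 6 days, differed by 3.39. HIST1H4E differed by 3.78 on the log2 scale (adjusted p = 1.85e-16 in edgeR), HIST3H2BB by 3.61 (1.07e-20) and HIST1H3H by 2.43 (2.22e-18). HIST1H2BG differed by 2.02 (3.86e-17), HIST1H2AG by 2.38 (8.37e-17), HIST1H2BF by 3.28 (8.48e-16) and HIST1H2BE by 2.73 (4.16e-07).

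Levels of different genes were compared per kilobase of the longest coding transcript on day 0. HIST1H2BK led with 189.6 ± 18.2 CPM per kb (SD, n = 5), followed by HIST1H2AC at 158 ± 22.3, HIST1H1C at 141 ± 5.72, HIST1H4I at 119 ± 16.7, HIST2H2AA4 at 116 ± 15.5, HIST3H2A at 100.4 ± 9.83 and HIST1H2BD at 95.4 ± 3.44. Within mean ± SD each of these overlapped the next, so their order is not firm. The coding entry of HIST1H4H came next, at 42.5 ± 1.64. On day 0 its nonsense-mediated decay entry averaged 40.6 CPM and the coding entry 17.4. The place of HIST1H4H is therefore not firm either. A gene's level per kb depends on the transcript length taken, and the 11 members with longer transcripts are the least certain.

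Many members called higher on day 6 lay close together in the HIST1 cluster on chromosome 6. Between HIST1H2BE and HIST1H3G (chr6:26172059-26271413, GRCh38.p14, 99.36 kb) lay 13 members, a stretch bounded after the values were seen and so described without a test. Both end members were themselves called higher on day 6, so the share inside follows in part from where the ends were put. On day 6, 7 of these 13 were higher, with a median log2 fold change of 1.06. Of the other 26 HIST1 members 2 were higher and 5 lower, with a median of 0.13, where 17.5% of all entries were higher and 17% lower. On day 1 the stretch was less distinct, 6 of 13 lower (median -1.04) against 16 of 26 (median -1.36), where 27.3% of all entries were lower. The 7 were HIST1H2BE, HIST1H4D, HIST1H2BF, HIST1H4E, HIST1H2BG, HIST1H2BH and HIST1H3G. HIST1H2AE and HIST1H3E within the stretch had no call on day 6 (0.02 and 0.11), and HIST1H4H, the next well-counted gene beyond it, was lower (-0.70).

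**Figure D4:**
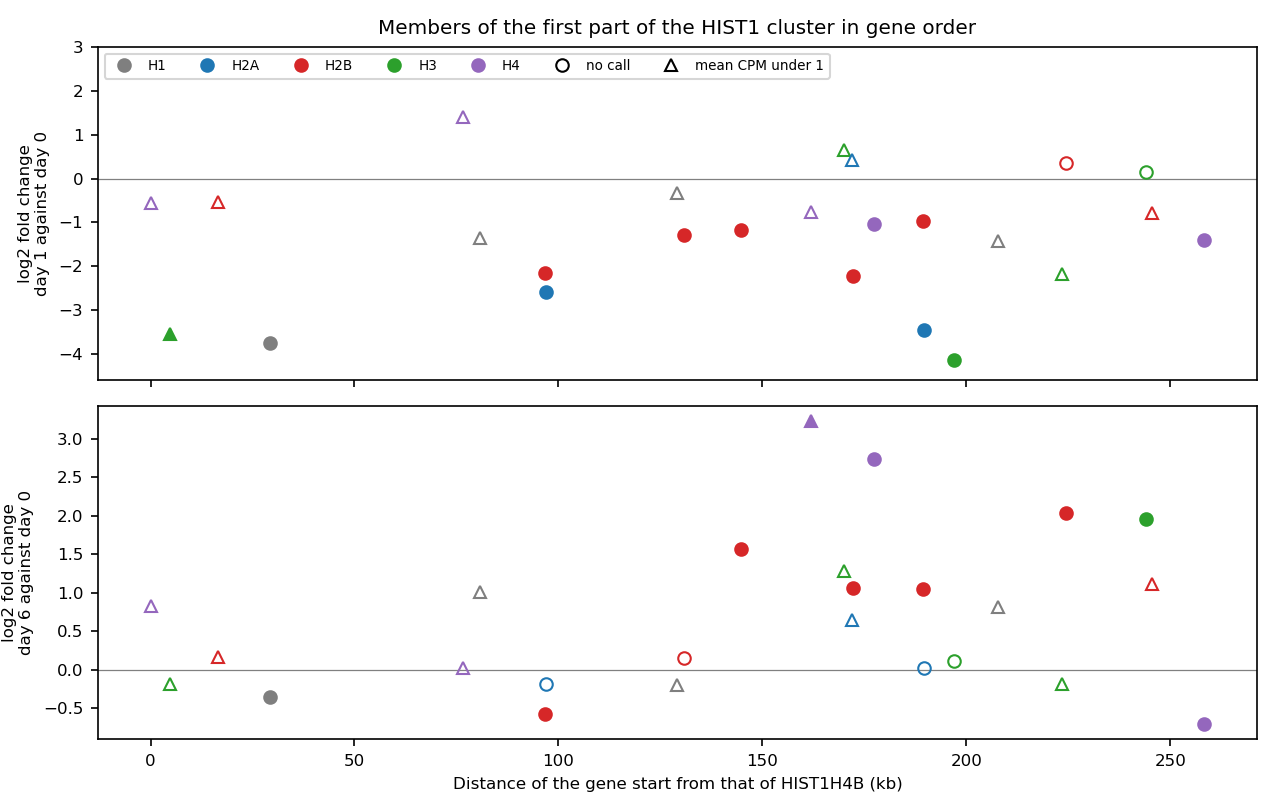
Log2 fold change against day 0 on days 1 and 6 (upper and lower panel) of the 25 members in the first part of the HIST1 cluster, against the distance in kb from HIST1H4B, coloured by class. Filled symbols are calls at an adjusted p of at most 0.05 and triangles are members under 1 CPM, and on day 6 the 7 called members between HIST1H2BE and HIST1H3G all lie above 0.

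Ratios were taken for 4 pairs of neighbouring H2B and H2A genes that share a promoter region and both averaged at least 1 CPM. Pairs with a gene under 1 CPM were left out. Of the 4 pairs, 2 changed their ratio on all 6 days, 1 on days 1, 2 and 4, and 1 passed on no day. The sequence between the 2 start sites of 3 such pairs is shown because both genes of a pair are read from it. It is printed on the plus strand, RefSeq GRCh38.p14, with matches to the octamer ATTTGCAT, to CCAAT and to TATAAA (either strand) in capitals.
HIST1H2BC/HIST1H2AC (chr6:26123927-26124144): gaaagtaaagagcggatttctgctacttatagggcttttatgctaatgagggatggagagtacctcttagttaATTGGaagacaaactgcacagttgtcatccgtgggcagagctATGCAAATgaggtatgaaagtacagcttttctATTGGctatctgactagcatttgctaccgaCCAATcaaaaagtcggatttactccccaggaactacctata
HIST1H2BG/HIST1H2AE (chr6:26216689-26216920): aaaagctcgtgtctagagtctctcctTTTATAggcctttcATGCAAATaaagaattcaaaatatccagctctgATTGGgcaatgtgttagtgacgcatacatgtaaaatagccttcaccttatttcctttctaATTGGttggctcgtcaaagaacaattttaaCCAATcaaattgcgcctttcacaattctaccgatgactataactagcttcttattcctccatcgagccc
HIST3H2A/HIST3H2BB (chr1:228457874-228458102): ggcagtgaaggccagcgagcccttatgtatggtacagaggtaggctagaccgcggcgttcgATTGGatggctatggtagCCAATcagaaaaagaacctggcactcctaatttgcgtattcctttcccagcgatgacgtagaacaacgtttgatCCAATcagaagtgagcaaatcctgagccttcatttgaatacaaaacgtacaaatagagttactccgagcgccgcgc
Both HIST1 regions hold 1 octamer and 3 CCAAT matches, and the HIST3 region holds 3 CCAAT matches and no octamer. Only the HIST1H2BG/HIST1H2AE region holds TATAAA.

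The log2 ratio of HIST1H2BG to HIST1H2AE started at 0.37 ± 0.21 (SD, n = 5) and reached 2.86 ± 0.91 after 1 day. HIST1H2AE itself went from 13.1, 9.20, 11.3, 9.82 and 10.8 CPM to 0.441, 0.787, 1.86, 1.03 and 0.845. The ratio was higher in 5 of 5 libraries on each of the 6 days, by 2.49, 1.68, 1.04, 1.02, 1.23 and 1.06 (exact permutation test, two-sided, p = 0.00794 for each day, the smallest that 5 against 5 allows, and 0.0147 after adjustment over 24 comparisons of 4 pairs). HIST3H2BB against HIST3H2A behaved alike, with differences of 0.92, 1.22, 0.81, 0.83, 0.57 and 1.05, each higher in 5 of 5 libraries at the same exact p. For HIST1H2BC against HIST1H2AC the ratio was higher on days 1, 2 and 4 by 0.46, 0.93 and 0.49 (adjusted exact p = 0.0272, 0.0147 and 0.0381) and did not pass on later days. It used the coding entry of HIST1H2AC, which changed by -2.58, -1.97 and -1.21 on those days. Over all its entries HIST1H2AC changed by -2.68, -1.69 and -0.94, so the differences on days 2 and 4 are less certain. The ratio over all entries was not tested. HIST1H2BJ against HIST1H2AG passed on no day (differences -0.57 to 0.52, smallest adjusted exact p = 0.112). The pairs were picked after values of the members were known.

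The same letters were counted in the RefSeq promoters (250 bases before to 50 after the start) of the 49 members that have one. The octamer was in 18 (36.7%, against 1.77% of 35116 promoters), namely 12 of 16 H2B and 6 of 11 H2A members and none of H1, H3 or H4. CCAAT was in 41 (83.7%, against 34.6%), but in 1 of 9 H4 members. TATAAA was in 31 (63.3%, against 11.5%). Members with the octamer (13 with a mean of at least 1 CPM) had a median change of -1.76 on day 1 with 11 lower, and the 19 with a promoter entry and no octamer -1.66 with 16 lower, against the same 34.7%.

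The 11 members with a GENCODE transcript past the stem-loop were all lower on day 1, with a median log2 fold change of -2.14. Of the 20 other members with a stem-loop and a mean of at least 1 CPM, 15 were lower, with a median of -1.39, against 34.7% of all entries at that level. On day 6, 3 of the 11 were higher and 1 lower, and 6 of the 20 were higher and 6 lower, shares not far from the 25.0% higher and 23.1% lower of all entries at that level.

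Genes that act on histone mRNA were mostly higher on days 1 and 2, also against the 25.4% and 23.2% of all entries. Among entries with a mean of at least 1 CPM, 36.3% and 33.3% were higher on those days. SLBP, which binds the stem-loop, went from 51.2 CPM on day 0 to 58.4 on day 1 (log2 fold change 0.19) and 66.9 on day 2 (0.39), and NPAT, the coactivator of histone gene transcription, from 31.6 to 64.6 CPM on day 1 (1.03). CASP8AP2, also needed for histone gene expression, changed by 1.24 on day 1. Of 14 genes of stem-loop-dependent 3′ processing, the day 1 test called 10 higher and 1 lower and the day 2 test 9 and 2 (medians 0.53 and 0.43). ZNF473 was the lower gene on day 1 (-0.49) and CSTF2T had the lowest value on day 2 (-0.44). Of 11 regulators of histone transcription and S-phase cyclins, 10 were higher on day 1 and 9 on day 2, with CCNE1 at 1.72 on day 1 and CCNA2, the S-phase cyclin, at 1.01 and 2.73. Of 20 genes of histone mRNA decay, 12 rose and 4 fell by day 1, and 13 rose and 5 fell by day 2, from PAPD4 at -0.67 to DHX9 at 1.23 on day 1 and from DCP1A at -0.43 to LSM4 at 0.95 on day 2.

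Genes of DNA replication were higher while the histone mRNAs were low. Of 20, 18 rose and 1 fell by day 1 (median 0.56), and 19 rose by day 2 (median 1.41), against the same shares of entries called higher. RRM2, a ribonucleotide reductase subunit, rose from 25.1 CPM on day 0 to 87.6 and 179 on days 1 and 2 (1.81 and 2.84). RRM1 led the list on day 1 at 1.87. PCNA, the replication clamp, was the lower gene on day 1 (-0.62) and at -0.03 on day 2. On day 2 the summed members were at 40.6% of day 0. In the paper's cell-cycle measurements of this line, proliferation was at its lowest on day 2 and was increasing by day 4. How these transcripts relate to the rate of replication was not tested.

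**Figure D5:**
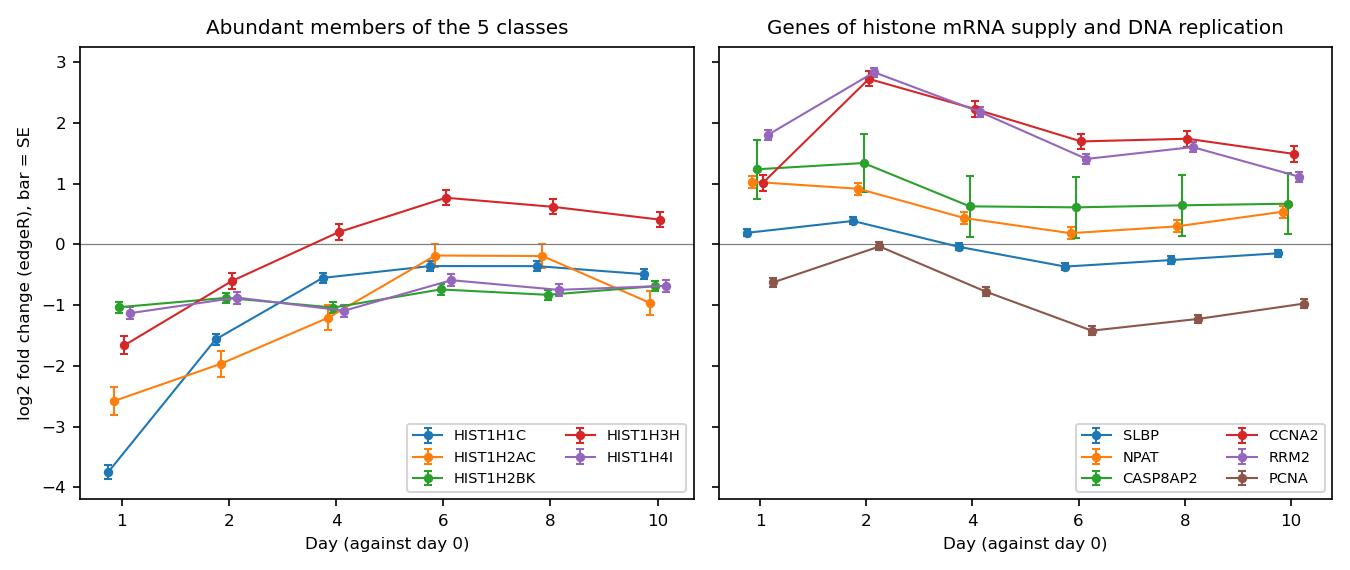
Log2 fold change against day 0 by day, with SE bars, of 5 abundant members (left) and of SLBP, NPAT, CASP8AP2, CCNA2, RRM2 and PCNA (right). On day 2 HIST1H1C lies at -1.57 and HIST1H2AC at -1.97, while CCNA2 lies at 2.73 and RRM2 at 2.84.

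Histone genes outside the replication-dependent clusters had mixed courses, read here against 25.4% of all entries higher and 27.3% lower on day 1, and 23.2% and 24.4% on day 2. Among entries with a mean of at least 1 CPM these shares were 36.3% and 34.7% on day 1, and 33.3% and 31.6% on day 2. Of 12 replication-independent variants 1 rose and 7 fell by day 1, while by day 2 the counts were 6 up and 4 down. H1F0, the linker histone of resting cells, was at -1.77 and H2AFJ at -1.68 on day 1, and H3F3A, which encodes H3.3, at -0.70 on day 1 and 0.34 on day 2. H2AFY, encoding macroH2A1, was the gene called higher on day 1, at 1.30, and CENPA, the centromeric H3, had the highest value on day 2, at 2.54. Of 24 chaperones and acetylation factors, 18 rose and 4 fell by day 1, and 20 and 2 by day 2, from SPTY2D1 at -0.53 and -0.86 to IPO4, which carries H3 and H4 into the nucleus, at 2.14 on day 1 and HJURP at 2.497 on day 2.

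Markers of cell identity moved as well on day 1. The 8 plasma cell markers summed to 6345 to 7259 CPM on day 0, 2567 to 2923 on day 1, 4507 to 5339 on day 2 and 7090.2 to 8076 on day 6, none at 0. Of the 8, 6 were lower on day 1, against 27.3% of all entries and 34.7% of those with a mean of at least 1 CPM. JCHAIN fell from 4757 to 1437 CPM (-1.73) and TNFRSF17 by 1.93 on the log2 scale. On day 2, 4 of the 8 were higher and 2 lower. The 13 markers of other marrow cells summed to 15.6 to 22.3 CPM on day 0 and 9.82 to 13.5 on day 1, with 2 at 0 in all libraries of both days. Of these, 5 were lower on day 1, against 27.3% of all entries, and on day 2 there were 3 lower and 3 higher, which is 23.1% each way and near the 24.4% and 23.2% of all entries. The part of these markers in the histone values was not tested.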

How the data were processed

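Total RNA of 5 subcultures on each of 7 days, 35 libraries in all, was sequenced as paired ends by the authors. The methods give 5 subcultures for RNA sequencing, so the days may be repeated samples of the same subcultures. The tests treated the days as independent. Per the labels and methods, reads were assigned to GENCODE transcripts (GRCh38.p12) with Kallisto 0.44.0. The deposited values are estimated counts, length-adjusted by the authors with tximport and rounded, with 1 entry for each symbol and transcript biotype. Because reads are shared out among transcripts, near-identical histone copies can trade counts, and coding and nonsense-mediated decay transcripts of 1 gene stand in separate entries. How tail-less RNA was retained is not given in the sources used here. Library totals ran from 6519392 to 10962890, and counting error limits members with few counts.

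Protein-coding entries with at least 1 count (17999 of 19665) were fitted with edgeR 4.0.16 (R 4.3.3): TMM factors, day as factor over all 35 libraries, quasi-likelihood tests, Benjamini-Hochberg adjustment over the entries, and a call at an adjusted p of at most 0.05. The 11 comparisons set each later day against day 0 and against the preceding sampled day. CPM used TMM-scaled protein-coding totals, and class sums are sums of member CPM. Pair ratios used a prior count of 0.5 and exact permutation tests. The scripts were tested on simulated data.

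Named members were the 3 with the highest mean CPM of each class, the 3 steepest risers and 3 steepest fallers of days 1, 2 and 10 among called members of at least 1 CPM without overlap of libraries, and those of HIST3 and HIST4. In the companion lists, the extremes on days 1 and 2 were named with SLBP, NPAT and CASP8AP2. Members and lists were chosen with earlier results of these data known. Alternatives were DESeq2 1.42.0 (the authors used DESeq2 1.25.8), other scaling, filters, thresholds, a replicate block and omission of each library. Transcripts and stop codons were taken from GENCODE, and stem-loops from the genome sequence. Promoter regions were read from RefSeq (GRCh38.p14).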

Additional observations from a re-analysis of the deposited data

Results flagged for a closer look

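In 13 of 280 groups of 5 libraries, 1 library lay far from the other 4, and chance alone gives about 1 group in 20. On day 8, replicate 1 had an H1 sum of 63.2 CPM against 84.0 to 87.1 in the others, owing to HIST1H1C at 61.6 CPM against 82.5 to 86.2. On day 1, replicate 1 had an H4 sum of 28.7 CPM against 35.5 to 36.2, with HIST1H4I at 19.1 CPM against 21.8 to 22.5. HIST1H2BD was at 25.4 CPM in day 1 replicate 4 against 31.3 to 33.4, HIST1H4H at 11.5 in day 6 replicate 2 against 10.3 to 10.6, and HIST1H4E at 7.25 in day 4 replicate 5 against 3.803 to 4.74. HIST1H2BH was at 1.72 CPM in day 2 replicate 1 against 3.22 to 3.61, and HIST1H1T at 0.691 in day 4 replicate 5 against 0 to 0.158. HIST2H2AA3, the copy of HIST2H2AA4, stood out in 4 groups: 15.8 CPM in day 0 replicate 5, 4.57 in day 1 replicate 3 and 1.12 in day 10 replicate 5, each against 0 in the other 4 libraries, and 9.27 in day 6 replicate 2 against 0 to 0.294.

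For 7 members the change against day 0 was called in opposite directions on days 1 and 6. The difference between those days was also called by edgeR, as given in the report, which follows from that choice of members. The log2 fold changes on days 1 and 6 were -1.66 and 0.77 for HIST1H3H, -1.04 and 2.74 for HIST1H4E, -0.97 and 1.05 for HIST1H2BG, -2.89 and 0.72 for HIST3H2BB, -1.76 and 0.62 for HIST1H2AG, -1.16 and 1.57 for HIST1H2BE, and -2.22 and 1.06 for HIST1H2BF.

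Histone symbols also carried counts in entries that are not protein-coding. The nonsense-mediated decay entry of HIST1H2AC averaged 51.2 CPM on day 0 and 3.27 on day 1, that of HIST1H4H 40.6 and 13.2, that of HIST2H4A 20.0 and 3.49, that of HIST2H4B 9.40 and 3.36, that of HIST1H2BN 6.92 and 2.10, and that of HIST4H4 1.83 and 1.26. On day 0 this entry was higher than the coding entry for HIST1H4H (coding 17.4 CPM), HIST2H4A (10.5), HIST2H4B (1.60) and HIST4H4 (0.823). Over all its entries HIST2H4B was lower on day 1 (-1.34) and higher on days 6 and 10 (1.05 and 1.04), where its coding entry had no call. The processed transcript of HIST4H4 averaged 1.07 and 1.12 CPM. Of the pseudogenes, HIST2H2BC averaged 6.03 and 2.58 CPM on days 0 and 1, HIST2H2BD 2.69 and 1.44, HIST1H1PS1 0.862 and 0.716, and HIST3H2BA 0.418 and 0.0315.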

How the results depend on the processing

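No value that was called, with all libraries or under an alternative, reversed direction. Values without a call did change sign: without day 0 replicate 5, its lone day 0 library with counts, HIST2H2AA3 went from -1.74 to 5.56 on day 1 and from -3.65 to 3.67 on day 10, and HIST1H3D from -0.41 to 2.97 on day 8. The H3 sum on day 4, near 0, also changed sign. Counts of members moved beyond 1.5 times in 21 cases and not in 419, and class sums moved in 3 cases and not in 417. Requiring an absolute log2 fold change above 1 left 15 members lower on day 2, 8 on the fourth, 2 on the sixth, 3 on the eighth and 2 on the tenth, with 5 and 3 higher at the last 2 times. Between neighbouring days it left 17, 8 and 5 risers into days 2, 4 and 6 and 0 fallers into days 2 and 10. DESeq2 called 2 members lower from day 6 to day 8. Summing all biotypes of a symbol, chosen after seeing the data, gave 1 member higher on day 1 and 9 on day 10, and 4 and 9 lower into days 8 and 10. Under it HIST1H2AC was lower on day 8 as well (-0.22, adjusted p = 0.0141 in edgeR). The cause was not tested. Without scaling factors the H2B sum changed by -1.41, -0.79 and -0.42 on days 1, 2 and 4. That setting moved the median tested entry to 0.13, 0.13 and 0.11 on those days, and the share of all calls that were higher from 48.7% to 59.3% on day 2, from 48.6% to 61.6% on day 4 and from 50.4% to 60.4% on day 10. Leaving out 1 library gave 0 to 1 members higher on day 1, 0 to 1 lower from day 2 to day 4 and 0 to 2 lower from day 6 to day 8, and 15 of 130 calls of single members against day 0 were lost without some library.

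Replicate numbers did not pair the libraries: 1 of 55 same-number correlations was over 0.1, and the best match of a library on another day had its number in 48 of 210 cases. With the replicate number as a block, 25 members rose from day 1 to day 2 in place of 26, 20 rose from day 2 to day 4 in place of 19, and the other counts of members were equal. Depth limits the 20 members under 1 CPM, where only large changes could be called.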
